A study of Homo sapiens with 12 samples.

Results

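The 7 genes examined here were VIM, ZEB1, SNAI2, AXL, CAV1, CAV2 and CD44, a set of mesenchymal markers and transcription factors of the epithelial-to-mesenchymal transition (EMT). They were found by gene symbol, as a set put together with earlier results of these data known, and all 7 had a row among the 11529 genes of the expression table. RNA of 2 triple-negative breast cancer cell lines was sequenced, MDA-MB-468, an epithelial, basal-like line, and MDA-MB-231, a mesenchymal-like line. In each line, 3 wild-type (WT) samples, which the labels also name Control, were compared with 3 SMARCA4 knockout (KO) samples, giving 4 groups and 12 samples. The KO cells had received a lentivirus with Cas9 and 1 guide RNA against SMARCA4, the ATPase of the SWI/SNF chromatin remodeler, and were selected with puromycin as a pool, not as a clone. Whether the WT cells had received any virus or puromycin is not given in the labels. The question was whether the loss of SMARCA4 moves the expression of mesenchymal genes, and whether the answer differs between the lines.

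During EMT, epithelial cells give up their junctions and polarity and take on a motile, fibroblast-like state. The change is driven by transcription factors such as ZEB1 and SNAI2 (Slug), zinc finger proteins that bind E-box sequences and repress epithelial genes such as CDH1. Vimentin (VIM) is the intermediate filament of mesenchymal cells, AXL is a receptor tyrosine kinase, CAV1 and CAV2 are the caveolins that build caveolae in the plasma membrane, and CD44 is the receptor for hyaluronan. In breast cancer cells these genes are used as marks of the mesenchymal state, although CD44 is also abundant in many basal-like cells.

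Values are FPKM, which are scaled for gene length and library size, or log2(FPKM + 1), the scale on which the differences were tested. SMARCA4 itself, the check of the labels, was at 96.86 to 101.3 FPKM in the WT and 39.67 to 47.68 FPKM in the KO samples of MDA-MB-468. In MDA-MB-231 it was at 67.02 to 71.51 FPKM in the WT and 21.02 to 23.85 FPKM in the KO samples. The KO samples lay below the WT samples in both lines, and the log2 differences of -1.16 and -1.57 passed the limma test (adjusted p = 0.0137 and 0.00143), with transcript remaining at 22.48 to 43.63 FPKM on average. The fall of the transcript was smaller in MDA-MB-468 cells (difference of the changes 0.41, SE 0.11, limma adjusted p = 0.027). Its part in the differences between the lines given below was not tested. The read depth is not known from the table. Nothing in the labels says whether replicates came from separate cultures, so the p-values measure the spread between these samples, which may be technical.

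CAV1 and CAV2 lie next to each other on chromosome 7, on the same strand, at chr7:116165048-116201233 and chr7:115927434-116148595 (GRCh37, GENCODE release 44 mapped to it). The annotated end of CAV2 is 16.45 kb before the start of CAV1. The RefSeq starts of the 2 genes, used for the windows below, lie much closer together than these annotated starts. The other genes are VIM at chr10:17270240-17279592, ZEB1 at chr10:31607424-31818742, AXL at chr19:41725128-41767671 and CD44 at chr11:35160429-35253949. The 250 bases before the RefSeq start of the caveolin genes are shown because these neighbors were the members with the largest differences in MDA-MB-468 KO cells, and those of AXL because they hold an E-box (CAGGTG, the same site as CACCTG on the other strand), given in capitals. The sequences are from RefSeq on GRCh38.p14, plus strand, which is also the strand of the genes, and their positions cannot be set against those of GRCh37 above.
CAV1, chr7:116524759-116525008: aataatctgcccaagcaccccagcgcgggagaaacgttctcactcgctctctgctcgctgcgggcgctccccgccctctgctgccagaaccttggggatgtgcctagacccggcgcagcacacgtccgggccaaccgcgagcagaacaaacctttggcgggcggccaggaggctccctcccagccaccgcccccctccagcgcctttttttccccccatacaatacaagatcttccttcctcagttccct
CAV2, chr7:116499488-116499737: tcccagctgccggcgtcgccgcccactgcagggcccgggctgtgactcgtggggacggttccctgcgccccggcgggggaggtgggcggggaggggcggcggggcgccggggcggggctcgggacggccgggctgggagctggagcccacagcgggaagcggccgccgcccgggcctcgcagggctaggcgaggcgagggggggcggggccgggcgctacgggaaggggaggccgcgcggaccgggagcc
AXL, chr19:41218973-41219222: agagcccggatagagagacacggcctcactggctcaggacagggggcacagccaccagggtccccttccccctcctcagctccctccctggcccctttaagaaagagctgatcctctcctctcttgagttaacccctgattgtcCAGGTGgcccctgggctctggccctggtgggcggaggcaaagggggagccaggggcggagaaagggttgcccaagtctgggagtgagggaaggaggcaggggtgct
The CAV2 window is the richest in G and C (83.2%, against 63.6% for CAV1 and 64.4% for AXL).

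RefSeq promoters of 6 members were searched, each before the most upstream RefSeq start of the gene. That of SNAI2, on chromosome 8, was left out. The E-box CACCTG, searched on both strands, was found once in AXL, at position -106 from the start, and once in ZEB1, at position -57. No match was found in the windows of VIM, CAV1, CAV2 and CD44. It occurs in 17.54% of all 27305 RefSeq promoter windows of this length. The letters GGAATG of the TEAD motif and TGANTCA of the AP-1 motif, searched the same way, were found in 0 of the 6 windows, and in 11.95% and 6.57% of all windows. A match or its absence describes the letters of these windows alone.

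The cell lines started from different levels. Of the 7 members, 6 were lower and 1, CD44, was higher in WT MDA-MB-468 than in WT MDA-MB-231 cells, and all 7 passed the test (limma, adjusted p under 0.05 and a log2 difference over 0.5). The expression table kept only genes with a mean and an SD of at least 1 FPKM over all 12 samples. ZEB1, AXL and SNAI2, under 1 FPKM in every MDA-MB-468 sample, could have a row only through MDA-MB-231 cells. Their differences between the lines follow from that filter, and their p-values add no evidence. Of all 11529 genes, 64.1% passed it, 31.4% as lower and 32.7% as higher, so a difference between these lines is common among the genes kept. A limit on the SD over the samples of both lines favors genes that differ between them. These shares therefore do not hold for genes outside the table. Each subtype is represented by 1 line, so line and subtype cannot be told apart.

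VIM was at 3.66, 2.04 and 2.12 FPKM in the WT samples of MDA-MB-468 and at 1396, 1219 and 1311 FPKM in those of MDA-MB-231. Its mean in MDA-MB-468 cells was 0.199% of that in MDA-MB-231 cells, a log2 difference of -8.53 (SE 0.16, adjusted p = 2.98e-09). AXL was at 0.08, 0.03 and 0.03 FPKM against 282.3, 224.7 and 239.7 FPKM. Its log2 difference was -7.89 (SE 0.10), and -10.74 with a pseudocount of 0.1 in place of 1, so its size depends on the pseudocount. These values put VIM and AXL among the most abundant genes of MDA-MB-231 cells (percentiles 99.5 and 97.0 of the genes of the table) and among the least abundant of MDA-MB-468 cells (percentiles 9.84 and 2.11).

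The EMT transcription factors showed the same split at lower levels. ZEB1 was at 0.04, 0.08 and 0.07 FPKM in WT MDA-MB-468 and at 11.56, 13.22 and 11.03 FPKM in WT MDA-MB-231 samples, a log2 difference of -3.60 (SE 0.08) that was -6.21 with a pseudocount of 0.1. SNAI2, on chromosome 8, was listed at 0 in the 3 WT and the 3 KO samples of MDA-MB-468 and was at 13.15, 12.29 and 12.04 FPKM in WT MDA-MB-231 samples. These log2 differences understate the fold of genes this low in MDA-MB-468 cells. For SNAI2 no fold between the lines is given, since its level in MDA-MB-468 cells is listed at 0.

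The caveolins and CD44 were expressed in both lines. CAV1 was at 15.04, 20.69 and 22.28 FPKM in WT MDA-MB-468 and at 322.1, 322.0 and 341.5 FPKM in WT MDA-MB-231 samples, a log2 difference of -4.04 (SE 0.14). CAV2 was at 42.25, 44.41 and 46.32 FPKM against 104.2, 106.2 and 110.1 FPKM, a log2 difference of -1.25 (SE 0.07), the smallest among the 6 lower members. CD44 was at 960.8, 882.1 and 826.6 FPKM against 542.1, 473.3 and 431.5 FPKM, so all 3 WT samples of the epithelial line lay above those of the mesenchymal-like line (log2 difference 0.89, SE 0.10, adjusted p = 8.13e-05).

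The order of the members therefore differed between the lines. In WT MDA-MB-468 cells the order was CD44, CAV2, CAV1, VIM, ZEB1, AXL and SNAI2, and the samples of ZEB1 and AXL overlapped. In WT MDA-MB-231 cells it was VIM, CD44, CAV1, AXL, CAV2, SNAI2 and ZEB1, and the samples of SNAI2 and ZEB1 overlapped. After the KO, CAV1 and CAV2 overlapped in MDA-MB-468 samples, and ZEB1 lay above SNAI2 in all MDA-MB-231 KO samples. No other neighbors changed place.

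**Figure D1:**
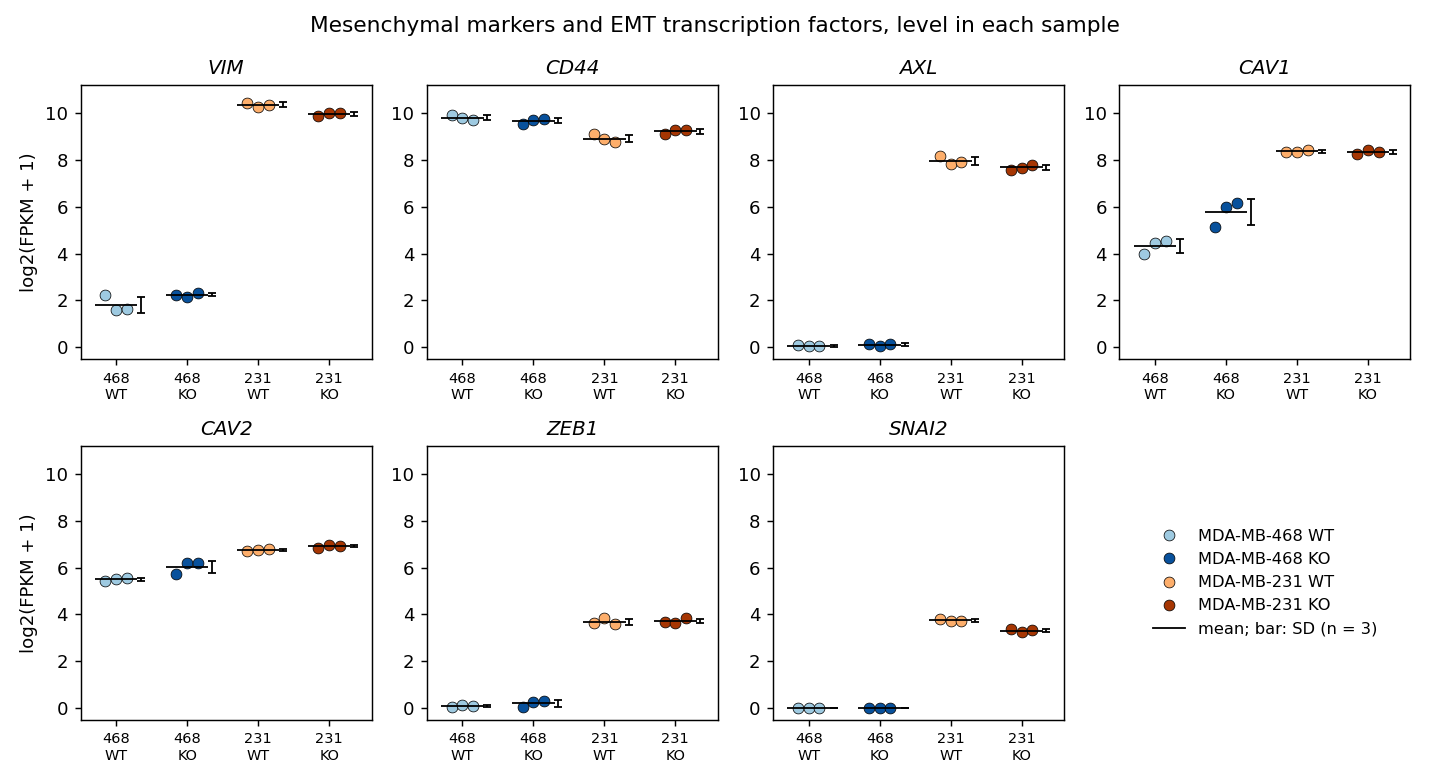
Level of each of the 7 members as log2(FPKM + 1) on the y axis in the 12 samples, by cell line and genotype; points are samples in the order of their replicate numbers, horizontal lines are means and bars are the SD of 3 samples. VIM, AXL, ZEB1 and SNAI2 are near the bottom in both MDA-MB-468 groups, CD44 is high in all 4 groups, and the CAV1 points of MDA-MB-468 KO lie above those of WT.

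In MDA-MB-468 cells, the caveolins were the members whose KO and WT samples did not overlap. None of the 7 members was a differentially expressed gene (DEG; 0 of 7; adjusted p under 0.05 and a log2 difference over 0.5 in either direction), against 2.14% of all genes (1.33% higher and 0.815% lower). With limma, 2 members, CAV1 and CAV2, had an unadjusted p under 0.05, as did 2899 of the 11529 genes. The KO and WT samples of 31.0% of all genes did not overlap, so the count of 2 members of 7 is close to the background. The median log2 difference of the members was 0.11, beside 0.02 over all genes.

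CAV1 was at 33.93, 63.44 and 70.23 FPKM in the KO samples, each above the highest WT sample at 22.28 FPKM. On average it was 2.89-fold higher, a log2 difference of 1.44 (SE 0.30, 95% confidence interval 0.68 to 2.19), which did not pass over all genes (limma adjusted p = 0.062). The replicate numbers were taken as pairs, although the p numbers of the labels pair the samples of this line otherwise. With a block for the replicate numbers the SE was 0.122 and CAV1 was called (limma adjusted p = 0.0449). The differences within the pairs were 1.12, 1.57 and 1.61. KO replicate 1 was the lowest of the 3, and without it the difference was 1.75 and CAV1 was called (limma adjusted p = 0.0221). It was not called without any other sample (differences of 1.24 to 1.54, limma adjusted p of 0.12 to 0.192), nor with blocks by the p number of the sample descriptions (1.86, adjusted p = 0.127). The mean of CAV1 in KO cells was 17.0% of that in WT MDA-MB-231 cells, up from 5.89% in WT MDA-MB-468 cells. In RNA of a pool of cells, more cells with the transcript and more transcript per cell cannot be told apart.

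CAV2, which forms complexes with CAV1, was at 51.58, 71.21 and 72.21 FPKM in the KO samples, all above the WT samples. The log2 difference was 0.53 (SE 0.14, 95% confidence interval 0.18 to 0.87, limma adjusted p = 0.0918). KO replicate 1 was again the lowest, and without it the difference was 0.68 and CAV2 was called (limma adjusted p = 0.0175), while without any other sample it was not (limma adjusted p of 0.168 to 0.246). The level in KO cells was 60.9% of that in WT MDA-MB-231 cells, against 41.5% in WT MDA-MB-468 cells.

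VIM was at 3.75, 3.49 and 3.96 FPKM in the KO samples. WT replicate 1, at 3.66 FPKM, lay among them, while the other two WT samples lay below, so the groups overlapped. The log2 difference was 0.42 (SE 0.17, 95% confidence interval -0.01 to 0.85, limma adjusted p = 0.21), and the level in KO cells was 0.285% of that in WT MDA-MB-231 cells.

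ZEB1 was at 0.03, 0.18 and 0.25 FPKM and AXL at 0.10, 0.03 and 0.11 FPKM in the KO samples, values of few steps of 0.01 FPKM, the resolution of the table. The log2 differences were 0.11 for ZEB1 (95% confidence interval -0.09 to 0.31) and 0.04 for AXL (-0.08 to 0.17). Both overlapped the WT samples, and SNAI2 remained listed at 0. CD44 was at 748.0, 837.3 and 869.5 FPKM in the KO samples, with a log2 difference of -0.12 (SE 0.08, 95% confidence interval -0.33 to 0.09, limma adjusted p = 0.42). Thus the 4 members with the lowest levels in this line stayed far under those of MDA-MB-231 cells.

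In MDA-MB-231 cells, VIM and SNAI2 were lower in all 3 KO samples than in any WT sample, and CD44 and CAV2 were higher. Again 0 of the 7 members was a DEG, against 3.70% of all genes (2.39% higher and 1.31% lower). Of the members, 5 had an unadjusted p under 0.05 with limma, as did 3596 of all genes, and 2, VIM and SNAI2, had an adjusted p under 0.05 with a log2 difference under the limit of 0.5. The samples of 5 members did not overlap, beside 36.0% of all genes. The median difference was -0.03 for the members and -0.01 for all genes.

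VIM was at 937.3, 1018 and 1040 FPKM in the KO samples, all below the lowest WT sample at 1219 FPKM. The log2 difference was -0.39 (SE 0.07, 95% confidence interval -0.56 to -0.21, limma adjusted p = 0.0309). It was -0.22 after quantile normalization (limma adjusted p = 0.105), and without 1 sample the adjusted p was 0.0496 to 0.101, over 0.05 in 5 of the 6 fits. SNAI2 was at 9.34, 8.38 and 8.99 FPKM, again below all WT samples, with a log2 difference of -0.45 (SE 0.06, 95% confidence interval -0.59 to -0.30, limma adjusted p = 0.0152). Without 1 sample its adjusted p was 0.0427 to 0.0688, over 0.05 only without KO replicate 2. With the replicate block the limma adjusted p was 0.109 for VIM and 0.0707 for SNAI2. AXL, at 187.8, 203.2 and 221.0 FPKM, also lay below the WT samples, and its difference of -0.28 (SE 0.11) did not pass (limma adjusted p = 0.139). ZEB1, the other EMT transcription factor among the members, was at 11.90, 11.36 and 13.17 FPKM and overlapped the WT samples, with a difference of 0.02 (95% confidence interval -0.19 to 0.24) whose sign turned when WT replicate 3 or KO replicate 3 was left out.

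CD44 was at 548.1, 617.9 and 613.9 FPKM in the KO samples, above the WT samples, with a log2 difference of 0.30 (SE 0.10, limma adjusted p = 0.106). CAV2 was at 114.3, 123.2 and 120.9 FPKM, above the WT samples, with a difference of 0.16 (SE 0.05, limma adjusted p = 0.0938). CAV1 was at 300.8, 339.5 and 323.2 FPKM and overlapped the WT samples, with a difference of -0.03 (95% confidence interval -0.18 to 0.12) that took the opposite sign under scaling to the 75th percentile, under quantile normalization and without KO replicate 1. An increase of CAV1 of the size seen in MDA-MB-468 cells lies outside this interval.

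The difference between the lines was tested as the change in MDA-MB-468 minus the change in MDA-MB-231 cells, in 1 limma fit of the 12 samples. It passed for 3 of the 7 members, against 14.7% of all genes (7.91% in that direction and 6.83% in the other). The difference of changes was 1.47 for CAV1 (SE 0.31, adjusted p = 0.0121). For VIM it was 0.81 (SE 0.19, adjusted p = 0.0192), the sum of a higher KO mean in the first line and a lower KO mean in the second. The third was SNAI2 (0.45, limma adjusted p = 0.00613), but it is listed at 0 in all 6 MDA-MB-468 samples. Its value is the MDA-MB-231 difference with the sign turned and does not compare the lines, which leaves 2 members, CAV1 and VIM, whose changes differed.

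For the other 4 members the test did not pass. CD44 went the other way, with -0.42 (SE 0.14, 95% confidence interval -0.72 to -0.12, limma adjusted p = 0.060). CAV2 had 0.37 (95% confidence interval 0.03 to 0.70, limma adjusted p = 0.127), and it was called without MDA-MB-468 KO replicate 1 (0.52, adjusted p = 0.00377). AXL had 0.33 (0.05 to 0.60) and ZEB1 0.09 (-0.19 to 0.36). Both lay near 0 in MDA-MB-468 samples, at most 0.11 FPKM for AXL and 0.25 FPKM for ZEB1. The AXL value is mostly the MDA-MB-231 difference of -0.28 with the sign turned, so neither value compares the lines well. CD44 was called without MDA-MB-231 WT replicate 1, its highest WT sample in that line (-0.51, adjusted p = 0.0343).

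**Figure D2:**
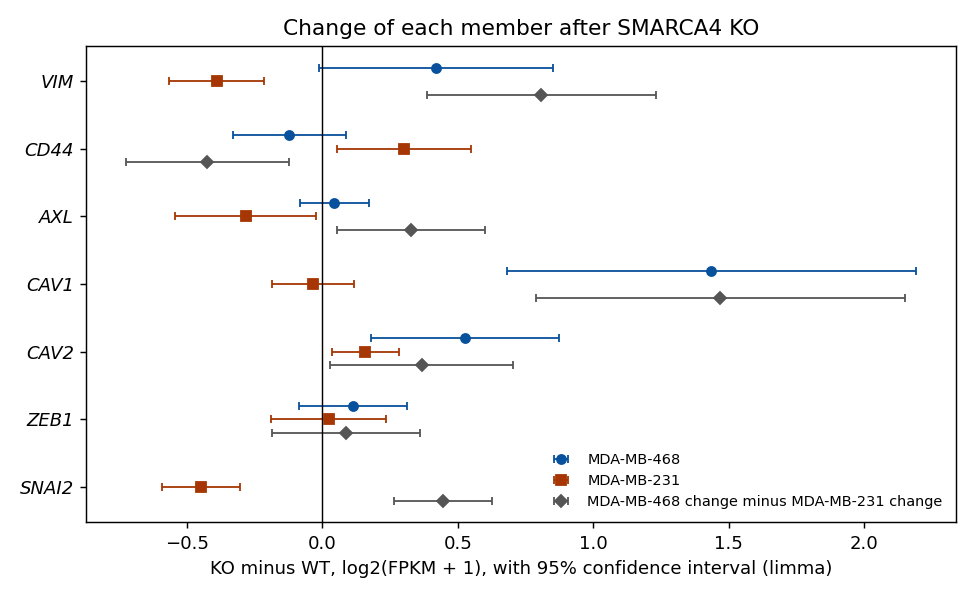
KO minus WT on the log2(FPKM + 1) scale (x axis) for each member in MDA-MB-468 (circles) and MDA-MB-231 (squares), and the first minus the second (diamonds); bars are 95% confidence intervals from limma, 3 samples a group. CAV1 stands out to the right in MDA-MB-468 at 1.44 and sits at -0.03 in MDA-MB-231, and VIM lies on opposite sides of 0 in the 2 lines; SNAI2 has no MDA-MB-468 point because all its values there are 0.

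The largest differences between KO and WT among the members concerned the caveolins of MDA-MB-468 cells, so the genes around CAV1 were looked at, a choice made after their values were seen. Within 1000 kb on each side of the CAV1 gene, 6 of the 41 annotated genes are in the table. MET, the receptor of hepatocyte growth factor, starts 147.2 kb after CAV1 and was higher in all 3 KO samples of MDA-MB-468 by 0.67 (SE 0.18, limma adjusted p = 0.0961). Beside the caveolins, whose values had prompted the choice, the samples of MET and of ST7, the latter with a lower level (-0.09), did not overlap in this line, as for 31.0% of all genes. TES and CAPZA2, on either side, had differences of 0.01 and 0.06 and overlapping samples. In MDA-MB-231 cells, MET had a difference of -0.02, and ST7 was lower by -0.34 (limma adjusted p = 0.0213, under the limit of 0.5). The change of MET differed between the lines by 0.69 (limma adjusted p = 0.0363), like that of CAV1.

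Caveolae also need cavins, which coat the membrane, and further membrane-shaping proteins. Of 8 such genes, 6 were in the table, and 1 of them was a DEG in MDA-MB-468 cells, against 2.14% of all genes. It was PTRF (cavin-1), which stabilizes caveolae, with a mean log2 level of 4.89 ± 0.07 (SD, n = 3) in WT and 5.92 ± 0.33 (SD, n = 3) in KO samples (difference 1.03, limma adjusted p = 0.0385; 0.0536 with the replicate block). In MDA-MB-231 cells PTRF stood at 7.79 in WT samples with a difference of 0.09. SDPR (cavin-2) and PRKCDBP (cavin-3) were at 0.03 or less on the log2 scale in both MDA-MB-468 groups and at 3.72 and 6.48 in WT MDA-MB-231 samples. EHD2, an ATPase at the neck of caveolae, had differences of 0.34 and 0.21 in the 2 lines, PACSIN2 0.03 and 0.31, and PACSIN3 0.13 and -0.22. The median of the 6 genes was 0.08 in MDA-MB-468 cells and -3.815e-05 in the other line, beside 0.02 and -0.01 for all genes.

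Among the ligands and sister receptors of AXL, all 4 of the list were in the table. GAS6, the ligand that activates AXL, was a DEG in MDA-MB-468 cells, with a mean log2 level of 2.48 ± 0.17 (SD, n = 3) in WT and 3.64 ± 0.15 (SD, n = 3) in KO samples (difference 1.16, limma adjusted p = 0.0157, and 0.0329 with the replicate block). The ligand thus rose in cells whose AXL level was at most 0.11 FPKM. In MDA-MB-231 cells, where AXL is abundant, GAS6 was at 6.96 and 6.94 and differed by -0.02. PROS1, the other ligand, had differences of 0.11 and 0.29, and the receptors TYRO3 and MERTK had -0.13 and -0.11, and 0.39 and 0.08. The list medians were 0.25 and 0.03.

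CD44 links hyaluronan to the actin skeleton through proteins such as ezrin (EZR) and radixin (RDX), and its variant exons are kept in by the epithelial splicing regulators ESRP1 and ESRP2. Of 10 genes of this kind, 7 were in the table, and 0 were DEGs in either line; an unadjusted p under 0.05 was found with limma for 1 gene in MDA-MB-468 cells and for 0 genes in the other line. ESRP1 was at 5.79 and 5.66 on the log2 scale in WT and KO MDA-MB-468 cells and at 0.02 and 0.01 in MDA-MB-231 cells. ESRP2 differed by -0.19 and 0.14 in the 2 lines, EZR by -0.07 and 0.06, RDX by 0.05 and -0.01, and HMMR, another hyaluronan receptor, by -0.11 and -0.02. The splicing factors RBFOX2 (0.10 and -0.01) and QKI (-0.05 and -0.17) were as close to 0. The values are per gene, so the isoforms of CD44 cannot be told apart.

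The wider list of EMT transcription factors held 16 genes, of which 8 were in the table. SNAI1 and TWIST1, among others, had no row, so the counts say nothing of them. In MDA-MB-468 cells 2 were called higher and 0 lower, against 1.33% and 0.815% of all genes. ETS1, a factor that binds GGAA sites, rose by 0.95 on the log2 scale (SE 0.12, limma adjusted p = 0.0266, and 0.0449 with the replicate block), and FOXC1, a forkhead factor of basal-like breast cancer, by 0.80 (SE 0.14, adjusted p = 0.0465, and 0.058 with the block). In MDA-MB-231 cells 0 were called higher and 2 lower, against 2.39% and 1.31% of all genes. HMGA2, an architectural chromatin protein, had -0.55 (limma adjusted p = 0.0231) and FOXC1 -0.51 (adjusted p = 0.0362). FOXC1 was therefore called in opposite directions in the 2 lines, and the difference of its changes was 1.31 (SE 0.18, limma adjusted p = 0.00118). The list medians were 0.06 and -0.03.

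Of 30 further mesenchymal markers, 19 were in the table. In MDA-MB-468 cells 3 were called higher and 1 lower, against 1.33% and 0.815% of all genes, and the list median was 0.10. TNC (tenascin-C, a matrix glycoprotein) rose by 1.11 (SE 0.09, limma adjusted p = 0.0145, and 0.0329 with the replicate block). LGALS1 (galectin-1) rose by 0.99 and LOXL2, which cross-links collagen, by 0.60 (limma adjusted p = 0.0357 and 0.0334, and 0.0708 and 0.0615 with the block). S100A4, a calcium-binding protein and the most abundant gene of the list in this line, fell by 0.77 on the log2 scale (limma adjusted p = 0.0485, and 0.0821 with the block). The summed FPKM of the 19 genes, to which S100A4 added most, was lower in KO samples (698.4 to 841.7) than in WT samples (948.0 to 1029) although the list median was above 0.

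In MDA-MB-231 cells 0 of the 19 genes were called higher and 2 lower, against 2.39% and 1.31% of all genes. The list median was -0.24, and 15 of the 19 had a negative difference. TNC fell by 1.05 on the log2 scale (SE 0.10, limma adjusted p = 0.00817), the direction opposite to that in MDA-MB-468 cells, and the difference of its changes was 2.16 (SE 0.14, adjusted p = 1.1e-05). LOX, which cross-links collagen and elastin, fell by 0.54 (limma adjusted p = 0.0393). Between the lines, the change was larger in MDA-MB-468 cells for 6 of the 19 mesenchymal markers and 5 of the 8 EMT transcription factors and smaller for 0 (limma, adjusted p under 0.05), beside 14.7% of all genes in either direction. Of these, ZEB2 and SDC2 were at 0.00 and HMGA2 and IGFBP7 at 0.10 to 0.20 on the log2 scale in both MDA-MB-468 groups, so that their values reflect the MDA-MB-231 difference and do not compare the lines.

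The calls in these lists rested on few samples. Without any 1 WT sample, or without KO replicate 2 or 3, none of the genes of the caveola, AXL, EMT transcription factor and mesenchymal lists was called in MDA-MB-468 cells, while without KO replicate 1 ETS1, GAS6 and PTRF were, as were mesenchymal markers such as LOXL2, S100A4 and TNC. In MDA-MB-231 cells TNC was called without each of the 6 samples in turn, HMGA2 only without KO replicate 3, and FOXC1 and LOX in none of them. With the replicate block 0 genes were called in this line (limma adjusted p = 0.0707 for both TNC and HMGA2).

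The epithelial side was described by 35 markers, of which 34 were in the table. In MDA-MB-468 cells 0 were called, against 2.14% of all genes (14 had an unadjusted p under 0.05 with limma). The median was 0.03, and the summed level was 9847 to 10590 FPKM in WT and 10700 to 10950 FPKM in KO samples. A difference above 0 was found for 18 of the 34 and one below 0 for 16. KRT8, among the most abundant and so of large weight in the sum, was higher by 0.4953 (limma adjusted p = 0.0318), just under the limit of 0.5. Without KO replicate 1, 1 was called higher (KRT8) and 3 lower (EHF, MUC1 and S100A14). CDH1 (E-cadherin) was at 5.50 and 5.28 on the log2 scale. The higher levels of CAV1, CAV2 and GAS6 in KO samples stood beside epithelial markers that moved in both directions, from -0.52 for MUC1 to 0.64 for CLDN1. None of these markers was at 0 in any MDA-MB-468 group, but a partial fall would not have brought them there. In MDA-MB-231 cells 7 were called higher and 0 lower, against 2.39% and 1.31% of all genes. The median was 0.20 and the summed level 1420 to 2128 FPKM in WT and 2156 to 2434 FPKM in KO samples. Among them were MUC1, a mucin (1.45, limma adjusted p = 0.0455), ELF3, an epithelial transcription factor (1.14, adjusted p = 0.0312), the junction protein TJP3 (1.1, adjusted p = 0.0155) and the claudin CLDN3 (0.75, adjusted p = 0.00817). CLDN3 was called without each of the 6 samples in turn, while the number of markers called higher was between 1 and 5 in these fits. With the replicate block 0 of the 34 markers were called (limma adjusted p = 0.0707 for CLDN3). The 7 markers called higher rose in the KO samples in which VIM and SNAI2 lay below the WT samples. The part of these markers in that result was not tested. The change differed between the lines for 8 of the 34 markers, smaller in MDA-MB-468 cells for 7 and larger for 1.

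Markers of other cell types were nearly missing from the table. Of 9 fibroblast markers 0 had a row, and of 13 leukocyte markers 2 had one, CD14 and CD68. CD14, a receptor of monocytes, was called higher in MDA-MB-231 KO samples (1.19, limma adjusted p = 0.0294), a call made in 1 of the 6 fits that leave out a sample (without KO replicate 3). In MDA-MB-468 cells CD14 was called lower only without KO replicate 1, and CD68 was not called in either line.

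**Figure D3:**
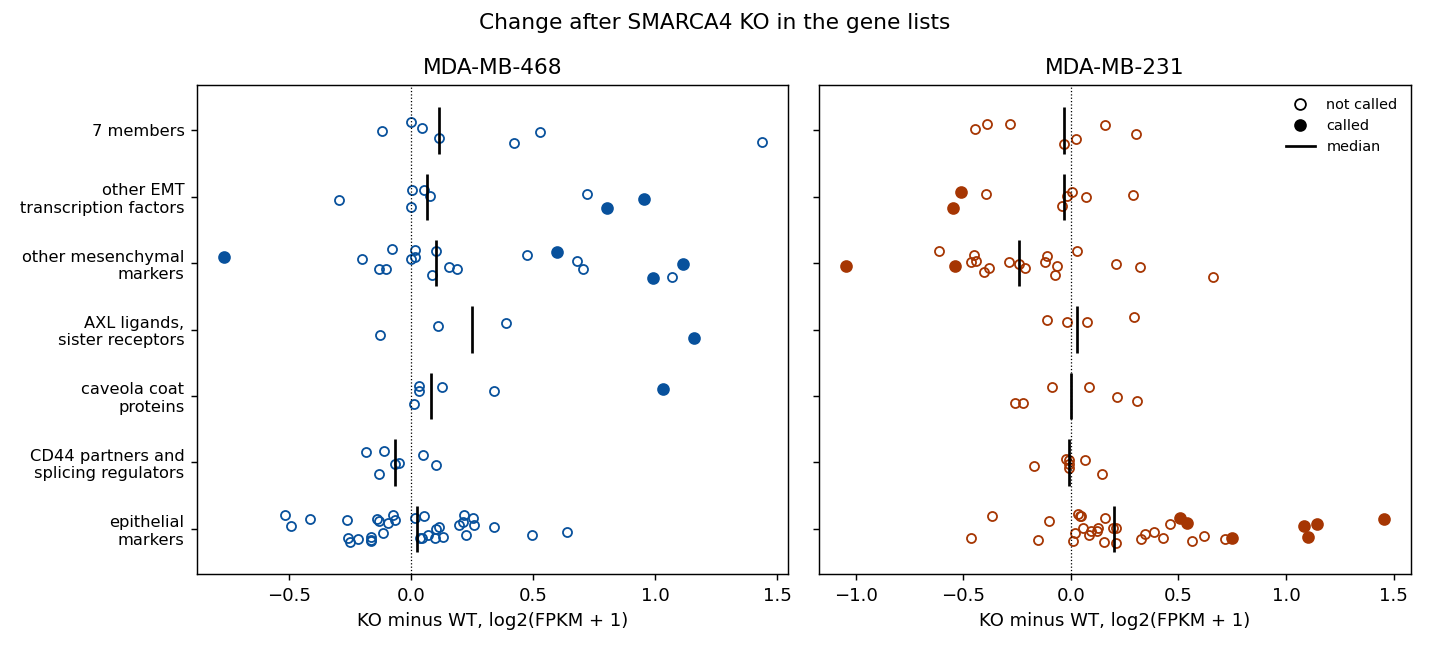
KO minus WT on the log2(FPKM + 1) scale (x axis) for the genes of each list (y axis), by cell line; each point is a gene, filled where it was called (adjusted p under 0.05 and a difference over 0.5, limma), and vertical bars are list medians. Filled points of the EMT and mesenchymal lists lie mostly to the right in MDA-MB-468 and to the left in MDA-MB-231, where the 7 filled epithelial points lie to the right.

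VIM and ZEB1 each overlap an antisense RNA gene that is in the table, and with the counting of strand not given, reads of the partners cannot be told apart. VIM-AS1 was at 0.29, 0.13 and 0.10 FPKM in WT and 0.47, 0.34 and 0.33 FPKM in KO MDA-MB-468 samples. In MDA-MB-231 cells it was at 6.06, 5.73 and 7.62 FPKM in WT and 3.81, 4.11 and 4.43 FPKM in KO samples, with a log2 difference of -0.54 (SE 0.11, limma adjusted p = 0.037), a DEG. The difference of its changes, 0.78 (limma adjusted p = 0.00543), was in the direction of that of VIM. ZEB1-AS1 had log2 differences of 0.26 (limma adjusted p = 0.143) and 0.00 (0.003097) in the 2 lines.

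Likeness to each member was measured over the 6 samples of each line, as the smaller of the 2 Pearson correlations, among 11278 genes (for SNAI2, over MDA-MB-231 alone, among 11376). With 6 samples and this many genes, high values are to be found for any gene, so the following are descriptions. For VIM the most alike were VIM-AS1 (r = 0.909 within MDA-MB-468 and 0.914 within MDA-MB-231) and RASSF5 (0.878 and 0.895). For ZEB1 they were LIPT1 (0.945 and 0.907) and CDYL (0.900 and 0.865), and for AXL RBM24 (0.869 and 0.939) and AP001258.4 (0.883 and 0.861). For CAV1 they were MCOLN1 (0.981 and 0.993) and MAEA (0.972 and 0.958), and for CAV2 MRPS5 (0.992 and 0.987) and FOXRED1 (0.979 and 0.991). For CD44 they were TPR (0.874 and 0.918) and TNFAIP1 (0.884 and 0.869), and for SNAI2 SRPK1 (0.999) and RAB21 (0.998). No member was among the 2 genes most like another member.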

How the data were processed

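For each of the 2 cell lines, 3 WT and 3 SMARCA4 KO samples were sequenced with a stranded mRNA kit. Trimming with Trimmomatic, two-pass alignment by STAR to hg19 and FPKM estimation by RSEM were done by the authors. They removed genes whose mean or SD was under 1 FPKM, and the table they deposited holds log2(FPKM + 1) for 11529 genes. The removal uses all 12 samples, so a gene seen in 1 line was kept. Back-transformed, the smallest mean was 1.07 and the smallest SD 1.0 FPKM. The strand setting of the counting is not given in the sources used here. The symbol of 18 rows was a date; these were tested, not named. The depth is unknown, so no interval that needs counts was computed.

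The log2 values were fitted with limma 3.58.1 in R 4.3.3 (lmFit, eBayes without trend), each line alone. A DEG needed an adjusted p (Benjamini-Hochberg, over all genes) under 0.05 and an absolute log2 difference over 0.5; the difference between lines was the interaction contrast of 1 fit of 12 samples, at an adjusted p under 0.05. Within MDA-MB-468, deviations from the group means correlated between samples of the same replicate number (0.254, 0.161 and 0.119), so the numbers of the titles were taken as pairs. This is an assumption, since WT replicate 3 and KO replicate 2 also correlated (0.131) and the p numbers pair these samples otherwise. The alternatives were a pseudocount of 0.1, a filter at a mean of 1 FPKM in the line, other scalings, an intensity trend, blocks, 1 fit, an adjusted p alone and leaving out each sample. The fit was tested on simulated data. The members and gene lists were chosen with earlier results of these data known. All members were named; of the lists, the called genes (at most 5 per list and line) and the AXL, caveola and CD44 genes; and the 2 genes most like each member, of mean log2 over 1. Some genes of the lists are not reported here. Figures were drawn with matplotlib 3.10.9.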

Additional observations from a re-analysis of the deposited data

Results flagged for a closer look

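The interaction test between the cell lines was passed by 3 members (limma, adjusted p under 0.05), of which 2, CAV1 and VIM, had values above 0 in both lines. With the change of MDA-MB-231 cells subtracted from that of MDA-MB-468 cells, the value was 1.47 on the log2 scale for CAV1, where the 3 KO samples lay above all WT samples in MDA-MB-468 and overlapped them in MDA-MB-231 cells. It was 0.81 for VIM, where the 3 KO samples lay below all WT samples in MDA-MB-231 and WT replicate 1 lay among the KO samples in MDA-MB-468 cells. It was 0.45 for SNAI2, which is listed at 0 in MDA-MB-468 cells, so the value is the difference within MDA-MB-231 cells and does not compare the lines.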

How the results depend on the processing

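Of 396 values of single members under the alternatives, 379 kept direction and call, 12 gained a call and 5 took the opposite sign. The opposite signs were near 0: the MDA-MB-231 difference of CAV1 was 0.00338 at the same 75th percentile, 0.0301 after quantile normalization and 0.0124 without KO replicate 1, and that of ZEB1 was -0.03 without WT replicate 3 (-0.0264) or KO replicate 3 (-0.0313). Over the leave-one-out fits they ranged from -0.07 to 0.01 for CAV1 (-0.0745 to 0.0124) and from -0.0313 to 0.0942 for ZEB1. A call here follows the DEG rule, so that VIM and SNAI2 in MDA-MB-231 cells, which were no DEGs, count as kept although their adjusted p rose over 0.05 in some fits, as given above. The difference of changes of VIM, SNAI2 and CAV1 kept its call under every alternative run, and that of CD44 also passed at the same 75th percentile (-0.47, adjusted p = 0.0481) and with an intensity trend (adjusted p = 0.0438).

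In MDA-MB-468 cells, 427 genes and 1 member (CAV1) were called with the filter on mean FPKM, 537 and 2 (CAV1 and CAV2) in 1 fit of all samples, and 432 and 0 by the adjusted p alone, against 247 and 0. In MDA-MB-231 cells the adjusted p alone called 1248 genes and 2 members (VIM and SNAI2), against 426 and 0. The cause of these shifts was not tested beyond what each setting changes.

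With the replicate block, 241 genes and 1 member (CAV1) were called in MDA-MB-468 cells; it changed no other member's call. In MDA-MB-231 cells, samples of the same replicate number also share the p number, and their deviations correlated at -0.0543, 0.0741 and -0.115. The block left 0 calls there (limma, smallest adjusted p 0.052, with 3126 genes at an unadjusted p under 0.05). In the interaction fit the block gave 1463 genes and 3 members. Blocks by the p number of the descriptions gave 0 DEGs in MDA-MB-468 cells (limma, smallest adjusted p 0.127; 2477 genes unadjusted). Numbers of different lines do not pair, so WT against WT was not blocked.

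Leaving out 1 sample gave 0 to 474 DEGs and 0 to 2 members in MDA-MB-468 cells (474 and 2 without KO replicate 1; 27, 0 and 12 DEGs without WT replicates 1, 2 and 3; 0 and 5 without KO replicates 2 and 3), 99 to 311 DEGs and 0 members in MDA-MB-231 cells (99 without KO replicate 2, 173 without KO replicate 1, 264 to 281 without a WT replicate), and 924 to 1897 genes and 3 to 4 members for the difference between the lines (924 without MDA-MB-468 KO replicate 2, 962 and 995 without MDA-MB-231 KO replicates 2 and 1, 1038 without MDA-MB-468 WT replicate 1). All 7 members differed between the WT lines under every alternative run, which for ZEB1, AXL and SNAI2 follows from the filter of the expression table.

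The depth behind the values is unknown, and no floor can be given for ZEB1, AXL and SNAI2, which lay below 1 FPKM in MDA-MB-468 cells.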
